A study of Glycine max with 60 samples.

Results

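The genes described here were the 40 histone genes of developing soybean (Glycine max) seeds, out of 56044 genes counted in the series. A gene was taken as a histone gene when the text of its best Arabidopsis (TAIR) or UniRef protein match named a histone H1, H2A, H2B, H3 or H4 or the histone superfamily, and 2 genes whose text named a histone-modifying enzyme were left out. This text was given for the 13166 genes that the authors had called differentially expressed between adjacent stages or between a mutant and its non-mutant line, and 12000 of these had it filled in. Histone genes that were never called there therefore had no text and could not be found, and the 40 genes were in effect selected on measured values, the authors' calls in 16 comparisons of adjacent stages and 10 of lines. The values of the 40 genes across stages and between mutant and non-mutant lines are for that reason a description, with no weight as a test. Of these, 11 genes were H4, 7 were H2B, 7 were H3.1, 5 were H1, 2 were CENH3 and 7 were H2A with its variants H2A.X, H2A.Z and H2A.W. The class was given by best Arabidopsis match, except that Glyma.02G140600 was put in H1 by its UniRef text. The remaining 1, Glyma.06G164400, was named Centromere protein S by UniRef and was given no class. All 40 passed the filter on low counts. Each identifier of the Wm82.a2.v1 annotation names the chromosome before the letter G, so that Glyma.02G140900 lies on chromosome 2, and Glyma.U033600 on none. Start and end positions were not used here.

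Histones are the proteins around which nuclear DNA is wound. A nucleosome core holds H2A, H2B, H3 and H4, and the linker histone H1 sits where DNA enters and leaves the core. Canonical histones such as H3.1 are made mostly while DNA is copied, so their mRNA is commonly read as a sign of dividing cells, and variants take special places: CENH3 replaces H3 at centromeres, H2A.Z lies near gene starts, H2A.X is phosphorylated at DNA breaks, and H2A.W marks plant heterochromatin. In a legume seed, cell division in the young embryo gives way to cell expansion and storage of protein and oil.

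RNA was sequenced from whole developing seeds of 4 lines at 5 stages of seed length (S1, 2-4 mm, to S5, 10-12 mm), with 3 libraries per line and stage and 60 in all. The line 3mlpa (genotype mips1/mrp-l/mrp-n, low in phytic acid) was set against 3MWT (MIPS1/MRP-L/MRP-N), its recombinant inbred sister from CX-1834 x V99-5089, and 1mlpa (mips1/MRP-L/MRP-N) against 1MWT (MIPS1/MRP-L/MRP-N), near-isogenic lines from Essex x V99-5089. All plants were grown in growth chambers, and the libraries of 3mlpa and 3MWT were taken over from earlier work by the authors. Each genotype was 1 line, so the named mutations and the rest of the line background cannot be told apart in a comparison of lines. The labels do not say that replicates came from separate plants.

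Libraries held 17359192 to 42800413 counted reads. Values are given in CPM, counts relative to library size, after TMM scaling, which adjusts the library totals so that most genes have the same level. This scaling matters here, because the 10 most abundant genes took 2.12 to 5.62% of reads at S1 and 23.0 to 32.9% at S5. The summed level of 5 glycinin and beta-conglycinin genes, markers of storage cells in the cotyledon, was 1.85 to 271.8 CPM at S1 and 178900 to 361000 CPM at S5, so the seed markers were present at S5 in every library and rose with the labelled stages. In whole seeds, fewer cells of a type and less histone RNA per cell cannot be told apart. Copies of core histones are near-identical and the treatment of reads that map to several genes was not given in the sources used here, so the split of reads between copies is uncertain, as is that between overlapping genes.

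Of the 40 genes, 37 were highest at S1 or S2 in every line in which they had counts, and 3 were highest at S5 in every line. The summed level of the 37 genes in 3mlpa was 508, 574 and 786 CPM in the libraries of S5, against 2587, 2735 and 2690 CPM at S1. In 3MWT it was 1496, 1156 and 950 CPM at S5, against 3767, 4048 and 4367 CPM at S1. In 1mlpa it was 674, 1043 and 789 CPM at S5, against 3070, 3042 and 2857 CPM at S1, and in 1MWT it was 759, 822 and 538 CPM at S5, against 2920, 3077 and 2181 CPM at S1. Every library of S5 lay below every library of S1 of its line. The 37 genes were summed because they were highest at S1 or S2, so a lower sum at S5 follows largely from that choice. The mean at S5 was 23.3% of that at S1 for 3mlpa, 29.6% for 3MWT, 27.9% for 1mlpa and 25.9% for 1MWT.

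**Figure D1:**
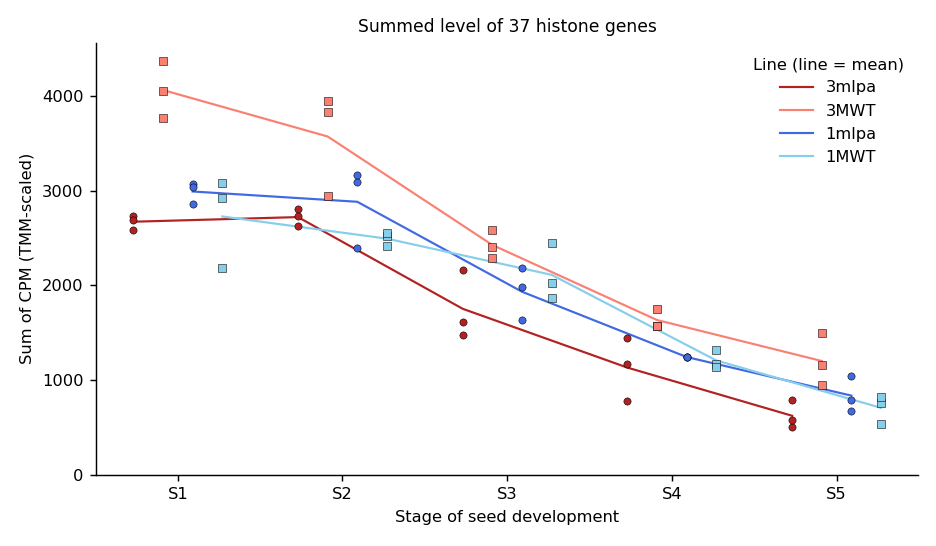
Summed level of the 37 histone genes that were highest at S1 or S2, in TMM-scaled CPM (vertical axis), by stage (horizontal axis) and line. Each point is 1 library and lines join the means of 3 libraries; the means at S5 lie between 623 and 1201 CPM and those at S1 between 2671 and 4061 CPM.

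The loss was spread over the later steps. Between S1 and S2 the summed mean stayed near its first level, at 2720 ± 86.7 CPM at S2 for 3mlpa, 3570 ± 547 CPM for 3MWT, 2881 ± 428 CPM for 1mlpa and 2492 ± 73.0 CPM for 1MWT (SD, n = 3 each). At S3 it was 1752 ± 365, 2425 ± 150, 1932 ± 277 and 2110 ± 301 CPM in the same lines, so 1MWT kept 77.4% of its S1 mean where 3MWT kept 59.7%. The stage with the highest group mean was not the same in all lines. Of the early genes with counts, 19 peaked at S1 and 17 at S2 for 3mlpa, against 34 and 2 for 3MWT. For 1mlpa 25 peaked at S1 and 12 at S2, against 29 and 8 for 1MWT. These numbers compare the means of stages with similar levels, in genes that share the same libraries. For the difference in S2 vs S1 between the lines of a pair, 0 of 40 genes had an unadjusted p under 0.05 in either pair (edgeR). Its median on the log2 scale was 0.19 for 3mlpa minus 3MWT and 0.07 for 1mlpa minus 1MWT.

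Gene by gene, the median log2 fold change over the 40 genes for S3 vs S2 was -0.72 for 3mlpa, -0.65 for 3MWT, -0.63 for 1mlpa and -0.25 for 1MWT, beside medians over all 40517 tested genes between -0.02 and 0.01 for the later steps. For S4 vs S3 it was -0.75 for 3mlpa, -0.79 for 3MWT, -0.87 for 1mlpa and -0.93 for 1MWT, and for S5 vs S4 it was -0.87, -0.57, -0.58 and -1.07. By these medians the step from S2 to S3 was the smallest in 1MWT and the step from S4 to S5 the largest. In 3MWT the median was most negative for S4 vs S3. No spread of the medians is given. The summed level of the 37 genes was 87.9, 59.7, 40.2 and 29.6% of its S1 mean at S2 to S5 in 3MWT. In 1MWT it was 91.4, 77.4, 44.3 and 25.9%, so in both lines the largest drop in this share came at another step. In what follows a gene was called when edgeR's quasi-likelihood test gave a Benjamini-Hochberg adjusted p under 0.01 and a log2 fold change beyond 1 in size.

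From S1 to S5, almost every histone gene was called. The count was 38 of 40 in 3mlpa (3 higher and 35 lower at S5), where 32.2% of all tested genes were called. It was 36 in 3MWT (3 higher, 33 lower, 29.3% of all genes called), 37 in 1mlpa (3 higher, 34 lower, 31.9%) and 38 in 1MWT (3 higher, 35 lower, 32.6%). The median log2 fold change over the 40 genes was -2.38, -2.26, -2.22 and -2.30 in the same lines, beside -0.05 to -0.04 over all genes. When library totals alone were used, all genes shifted by -1.02 to -0.90 in the median for S5 vs S1, and 39, 39, 40 and 40 histone genes were called, again with 3 higher at S5 in each line. Under that scaling 20552, 19508, 19569 and 21281 of all 40517 tested genes were called, more than in the main setting.

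The genes not called for S5 vs S1 were the linker histone genes Glyma.02G140900 and Glyma.10G033100 in 3MWT, 1mlpa and 1MWT, Glyma.06G164400 in 3mlpa and 1mlpa, the rare H4 gene Glyma.17G226200 in 3MWT, and Glyma.15G222200, which had no counts in 3mlpa and 3MWT. Glyma.02G140900 and Glyma.10G033100 best matched Arabidopsis H1.2 and had the least negative mean change over the 4 lines among the 37 early genes, -0.73 and -0.76 on the log2 scale. In 3MWT, Glyma.02G140900 had 284, 227 and 213 CPM at S5, against 301, 269 and 311 CPM at S1, and the libraries of the 2 stages overlapped. In 3mlpa it had 75.1, 78.2 and 115 CPM at S5, against 199, 202 and 229 CPM at S1, with no overlap. The log2 fold change for S5 vs S1 was -1.23 ± 0.16 for 3mlpa, -0.28 ± 0.16 for 3MWT, -0.70 ± 0.16 for 1mlpa and -0.72 ± 0.16 for 1MWT (standard error), so it was called in 3mlpa alone. The difference between the 2 lines of a pair in S5 vs S1 was not itself tested.

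Glyma.10G033100 moved closely with it. Its level was 88.7, 93.3 and 133 CPM at S5 in 3mlpa, against 230, 235 and 255 CPM at S1, and 304, 244 and 202 CPM at S5 in 3MWT, against 358, 308 and 354 CPM at S1. Its log2 fold change for S5 vs S1 was -1.19 ± 0.17 for 3mlpa, -0.44 ± 0.17 for 3MWT, -0.68 ± 0.17 for 1mlpa and -0.73 ± 0.17 for 1MWT. With library totals alone, both genes were called in all 4 lines, with values of -1.15 and -1.31 in 3MWT for Glyma.02G140900 and Glyma.10G033100, where the median of all genes was itself -0.92.

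The other H1 genes followed other courses. Glyma.20G225900, a further H1.2 match, behaved like the core histones, with 22.2, 25.8 and 50.8 CPM at S5 in 3mlpa against 163, 171 and 164 CPM at S1. Glyma.11G075500 matched H1.3, which in Arabidopsis is the stress-inducible linker histone, and lost less: its log2 fold change for S5 vs S1 was -1.37 ± 0.22 for 3mlpa, -1.27 ± 0.22 for 3MWT, -1.51 ± 0.22 for 1mlpa and -1.46 ± 0.22 for 1MWT. In 3mlpa it had 56.9, 112 and 90.4 CPM at S3 and 44.0, 36.4 and 40.3 CPM at S4, so its level dropped between these stages, whereas in 3MWT it had 59.8, 64.3 and 60.1 CPM already at S2.

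**Figure D2:**
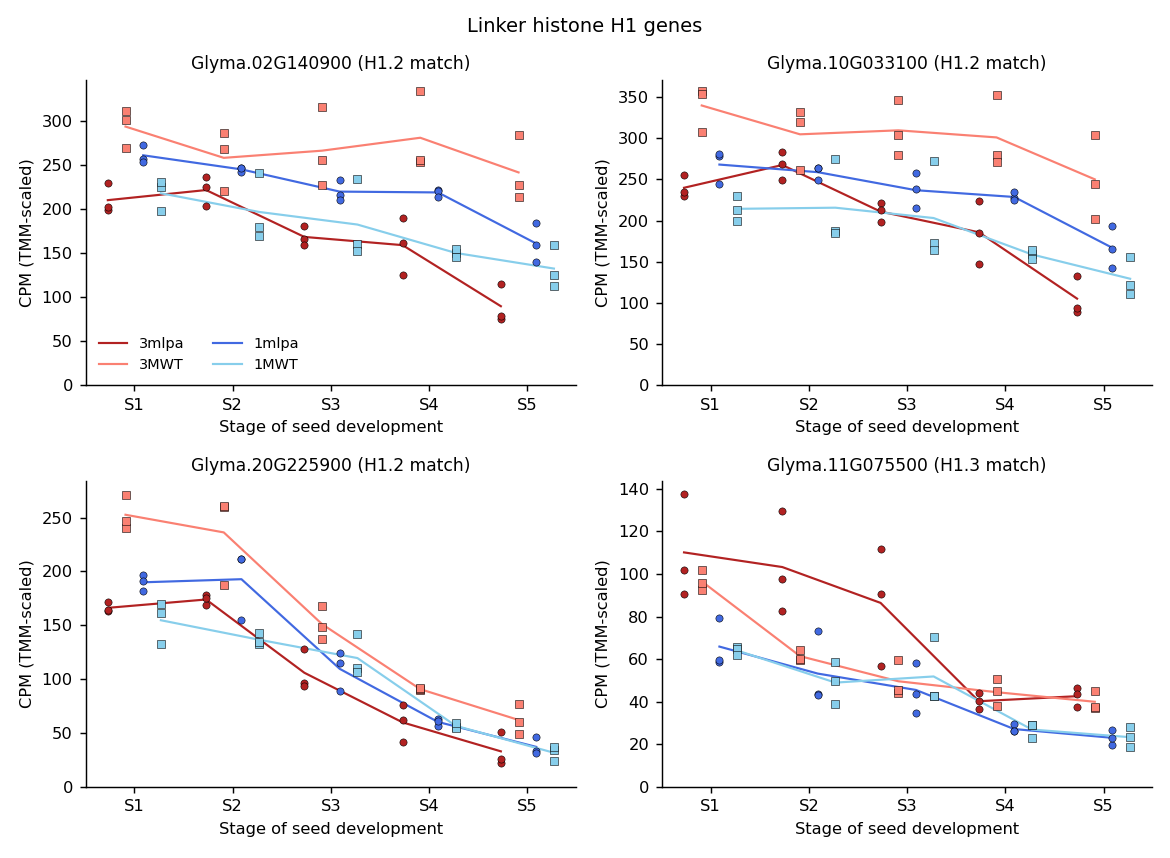
Level of the 4 abundant H1 genes in TMM-scaled CPM (vertical axes) by stage (horizontal axes) and line, 1 point per library with lines joining means of 3. The upper panels show the H1.2 matches that changed least, for which 3mlpa had 75.1 to 133 CPM at S5 and 3MWT 201.6 to 304.2 CPM.

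On the deposited RPKM scale, which divides by gene length and so lets genes be compared, the 7 H2A genes summed to 107 ± 17.7 RPKM at S5 in 3mlpa, against 1123 ± 41.8 RPKM at S1, and to 179 ± 46.2 RPKM at S5 in 3MWT, against 1725 ± 175 RPKM at S1 (SD, n = 3). The sums were 130 ± 44.0 RPKM at S5 in 1mlpa, against 1258 ± 122 RPKM at S1, and 105 ± 47.0 RPKM at S5 in 1MWT, against 1168 ± 229 RPKM at S1. These RPKM values follow library totals, and so include the share of reads taken by storage protein genes at S5.

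The canonical H2A genes had the steepest mean losses over the 4 lines among histone genes above 2 CPM at their peak, -4.32 for Glyma.12G215600 and -3.56 for Glyma.13G285900. Glyma.12G215600, which matched HTA2, had 0.749, 1.17 and 0.329 CPM at S5 in 1mlpa, against 24.3, 27.4 and 23.9 CPM at S1, and 1.07, 1.299 and 0.468 CPM at S5 in 1MWT, against 28.3, 27.7 and 32.2 CPM at S1. Its log2 fold change for S5 vs S1 was -3.87 ± 0.39 for 3mlpa, -3.42 ± 0.34 for 3MWT, -5.07 ± 0.41 for 1mlpa and -4.94 ± 0.39 for 1MWT. Glyma.13G285900, an HTA10 match, gave -2.76 ± 0.39, -2.62 ± 0.38, -4.32 ± 0.43 and -4.55 ± 0.43 in the same lines. For both genes the fitted loss was larger in the lines of the Essex cross than in 3mlpa and 3MWT, a difference that was not tested. In 3mlpa the libraries of S5 were widely spread for Glyma.13G285900, at 6.66, 15.8 and 1.76 CPM.

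The H2A variants fell less and more evenly. Glyma.15G040200, the H2A.W match (HTA12), had the highest mean of the class, 167.7 RPKM over the 60 libraries, and had 26.8, 29.1 and 42.1 CPM at S5 in 3mlpa, against 163, 184 and 170 CPM at S1. Its log2 fold change for S5 vs S1 lay between -2.40 in 3mlpa and -2.24 in 1mlpa. The H2A.Z matches Glyma.02G143200 and Glyma.10G031200 gave -2.37 and -2.41 for 3mlpa, and -2.20 and -2.07 for 3MWT. The H2A.X matches Glyma.03G148100 and Glyma.19G151400 gave -2.41 and -2.55 for 3mlpa, and -2.60 and -2.49 for 3MWT. Standard errors for these 5 genes were 0.21 to 0.27, so the values of the variants lay close together relative to their errors.

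Of the 7 H2B genes, 5 fell and 2 rose from S1 to S5 in all 4 lines. The most abundant, Glyma.12G065400 (HTB9 match), averaged 98.2 RPKM over the 60 libraries, and its log2 fold change for S5 vs S1 was -2.90 ± 0.25 for 3mlpa, -2.72 ± 0.25 for 3MWT, -2.63 ± 0.25 for 1mlpa and -2.65 ± 0.25 for 1MWT. Glyma.11G141800, a further HTB9 match, gave -2.64 in 3mlpa and -2.42 in 3MWT. Glyma.13G321600, an HTB3 match, gave -2.67 in 3mlpa and -2.69 in 3MWT. Glyma.20G191600, an HTB5 match, gave -2.36 in 3mlpa and -1.95 in 3MWT, beside -1.68 in 1mlpa and -1.93 in 1MWT.

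The 2 rising H2B genes, Glyma.11G191600 and Glyma.12G082700, were the only members whose best match was the Arabidopsis H2B gene HTB8. Glyma.12G082700 had 19.5, 16.98 and 20.6 CPM at S5 in 3mlpa, against 0.434, 0.145 and 0.722 CPM at S1. In 3MWT it had 6.88, 7.63 and 7.15 CPM at S5, against 0.0862, 0.264 and 0.162 CPM at S1. In 1mlpa it had 15.4, 9.36 and 14.3 CPM at S5 and in 1MWT 15.1, 10.1 and 16.9 CPM, with at most 0.189 CPM in any library of S1 of these lines. The levels at S5 thus did not overlap between 3mlpa and 3MWT, and did between 1mlpa and 1MWT.

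Glyma.11G191600 had the same course at a lower level. It had 9.14, 7.95 and 9.68 CPM at S5 in 3mlpa, beside 2.61, 2.93 and 4.16 CPM in 3MWT. In the Essex cross it had 7.24, 3.18 and 6.20 CPM in 1mlpa, beside 5.92, 5.08 and 9.24 CPM in 1MWT. At S1 it had 0 counts in 7 of the 12 libraries and no more than 0.167 CPM in the others, so no fold against S1 is given. These were the only histone genes called for S2 vs S1: Glyma.12G082700 in 3mlpa and 3MWT, and Glyma.11G191600 in 3mlpa. At S3 the 3mlpa libraries were uneven, with 2.09, 15.1 and 8.40 CPM for Glyma.12G082700, and the library with the lowest of these values had the highest summed level of the 37 early histone genes at that stage, 2166 CPM beside 1610 and 1479 CPM in the other libraries.

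The remaining gene that rose was Glyma.02G140600, annotated as an H1flk-like protein by UniRef while its best Arabidopsis match was a P-loop hydrolase, so that its class is doubtful. It was rare throughout, with 2.35, 2.72 and 1.81 CPM at S5 in 3mlpa, beside 0.771, 0.803 and 1.29 CPM in 3MWT. In the Essex cross it had 1.75, 1.28 and 1.54 CPM in 1mlpa, beside 1.01, 1.81 and 1.70 CPM in 1MWT. At S1 it had at most 0.389 CPM in any library, and 0 counts in 1 library of 3MWT.

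**Figure D3:**
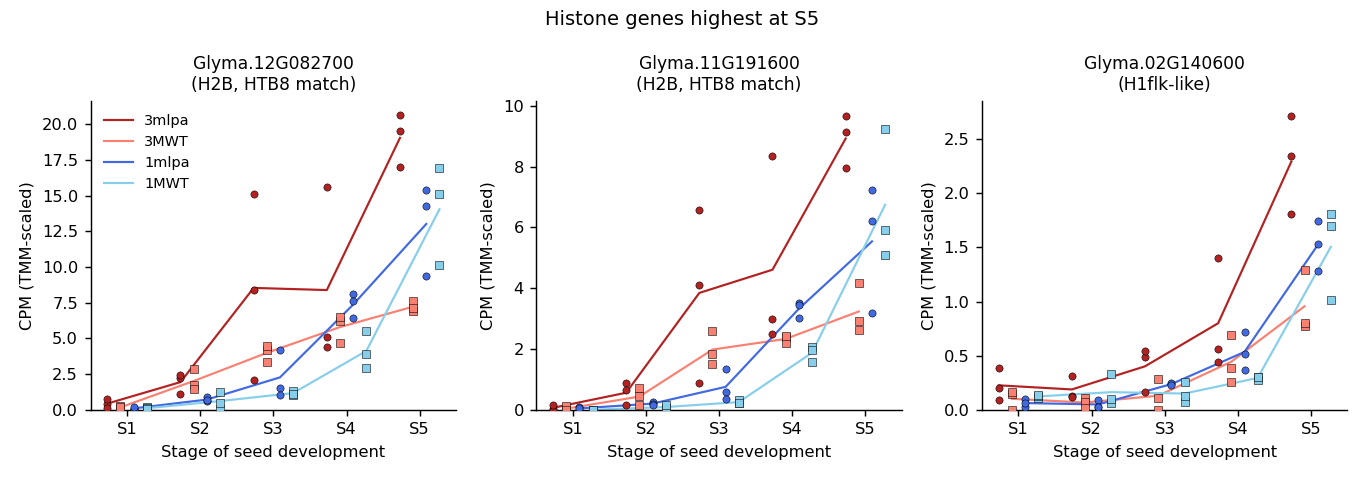
Level of the 3 histone genes that were highest at S5, in TMM-scaled CPM (vertical axes) by stage (horizontal axes) and line, 1 point per library with lines joining means of 3. At S5 the libraries of 3mlpa lie above those of 3MWT for all 3 genes, at 16.98 to 20.6 CPM against 6.88 to 7.63 CPM for Glyma.12G082700.

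Canonical H3 was represented by 7 genes that all best matched HTR1, an H3.1 gene of Arabidopsis. Glyma.11G130900 was the most abundant histone gene of all per length, with a mean of 205.4 RPKM over the 60 libraries. It had 13.7, 15.4 and 22.6 CPM at S5 in 3mlpa, against 100.4, 93.8 and 96.2 CPM at S1, and 41.8, 29.7 and 24.0 CPM at S5 in 3MWT, against 149, 124 and 188 CPM at S1. Glyma.13G342000 had 115 RPKM and Glyma.12G055200 86.1 RPKM in the same mean, and their log2 fold changes for S5 vs S1 were -1.99 and -2.36 in 3mlpa and -1.53 and -1.88 in 3MWT. Glyma.08G227400 had the largest loss of these H3.1 genes in 3mlpa, at -2.84 ± 0.28, and gave -2.55 ± 0.28 in 3MWT. All 6 H3.1 genes with counts in 3mlpa and 3MWT were lower at S5 than at S1 in all 4 lines by the call used here.

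CENH3, the centromeric H3, was encoded by Glyma.07G057300 and Glyma.16G026300. The first had 7.18, 7.65 and 7.01 CPM at S5 in 3mlpa, against 26.1, 30.5 and 26.4 CPM at S1, and log2 fold changes for S5 vs S1 of -1.93 ± 0.21 for 3mlpa, -2.07 ± 0.20 for 3MWT, -1.98 ± 0.21 for 1mlpa and -2.06 ± 0.21 for 1MWT. The second was rarer, and is described with the comparison of the crosses.

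The 11 H4 genes encode the most conserved histone, and 10 of them were plainly expressed. Glyma.15G043200 led with a mean of 126 RPKM over the 60 libraries, followed by Glyma.20G083800 with 67.7 RPKM. The log2 fold change of Glyma.15G043200 for S5 vs S1 lay between -2.85 (1MWT) and -2.58 (3mlpa), and that of Glyma.20G083800 between -2.30 (3mlpa) and -2.17 (1mlpa). Glyma.13G147000 gave -2.07 and -2.29 and Glyma.18G064400 -2.46 and -2.47 in 3mlpa and 3MWT. The largest loss among the expressed H4 genes was that of Glyma.12G074500, at -3.04 ± 0.25 in 3mlpa and -3.30 ± 0.25 in 3MWT. The smallest was that of Glyma.10G062400, at -1.67 ± 0.20 and -1.26 ± 0.19. Glyma.17G226200 did not pass 1.55 CPM in any library and was at 0 counts in 15 of the 60, so its fold changes are not given. The 6 histone genes not named elsewhere (Glyma.11G177900, Glyma.11G178200, Glyma.12G179100, Glyma.15G032300, Glyma.18G064300 and Glyma.U033600) had log2 fold changes for S5 vs S1 between -2.83 and -1.95, all called in every line. Over the class, the median for S5 vs S1 was -2.58 for 3mlpa, -2.70 for 3MWT, -2.45 for 1mlpa and -2.72 for 1MWT, against -2.01, -1.97, -2.02 and -2.21 over the 9 H3 genes.

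The steps at both ends gave few or unsteady calls. For S2 vs S1, 2 histone genes were called for 3mlpa, 1 for 3MWT, 0 for 1mlpa and 0 for 1MWT by edgeR, where 4.58, 9.23, 8.56 and 1.74% of all genes were called. At an unadjusted p under 0.05 the numbers were 4, 3, 4 and 3, and the share of all genes is not given for that threshold. DESeq2 called 2, 2, 1 and 0 histone genes, and 1939, 3857, 3566 and 895 of all genes. Leaving out either 3mlpa S1 replicate 1 or 2, or 3mlpa S2 replicate 1 or 3, left 0 calls in 3mlpa, and leaving out 3MWT S1 replicate 2 or S2 replicate 3 gave 2 in 3MWT.

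For S5 vs S4, 10 histone genes were called in 3mlpa, 0 in 3MWT, 1 in 1mlpa (the H2A gene Glyma.13G285900) and 23 in 1MWT, where 2.34, 0.343, 3.57 and 7.17% of all genes were called. At an unadjusted p under 0.05 the numbers were 36, 26, 29 and 37, without a share of all genes to set beside them. DESeq2 called 9, 0, 2 and 25 histone genes, and 1160, 238, 1656 and 3039 of all genes. In 3mlpa the count was 0 without S4 replicate 1 or S5 replicate 1, 1 without S4 replicate 2, 4 without S5 replicate 2, 27 without S4 replicate 3 and 19 without S5 replicate 3. In 1mlpa it was 7 without S5 replicate 2 and 0 without S4 replicate 1, S5 replicate 1 or S5 replicate 3, and in 1MWT it was 6 without S5 replicate 3. The summed level of the 37 genes at S4 in 3mlpa was 1441, 1174 and 779 CPM, and the last of these libraries lay below one of S5, at 786 CPM. That library had 164500 CPM of storage protein markers, against 60500 and 69600 CPM in the other two of S4, and the part of this in the result was not tested.

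Between 3mlpa and 3MWT most histone genes were lower in the mutant at every stage, by amounts that mostly stayed under the fold required for a call. The median log2 fold change over the 40 genes was -0.60 (S1), -0.44 (S2), -0.45 (S3), -0.37 (S4) and -0.71 (S5), beside medians over all genes between -0.03 and 0.01. Between 33 and 35 of the 40 genes had a value below 0 at each stage, where 48.0 to 52.3% of all genes did. At S1, all 3 libraries of 3mlpa lay below all 3 of 3MWT in 33 histone genes, where 21.3% of all genes did so. The number was 23 at S2 (25.4% of all genes), 10 at S3 (18.6%), 11 at S4 (16.7%) and 16 at S5 (19.6%). All 3 libraries of 3mlpa lay above all 3 of 3MWT in 1, 3, 0, 2 and 3 histone genes at S1 to S5. The share of all genes is not given for that direction. Over the 5 stages, 3 genes were below in every one: the H3.1 gene Glyma.05G188600, the H4 gene Glyma.10G062400 and the H2A gene Glyma.12G215600. The share of all genes below at every stage was not computed, so this number has nothing to be set against. The size of the differences in this comparison depends on the scaling. With library totals alone the median over all genes for 3mlpa vs 3MWT was 0.19 at S3 and 0.19 at S4.

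The storage markers were lower in 3mlpa than in 3MWT from S1 to S4 by their middle library. Their summed level was 1.85 to 54.8 CPM in 3mlpa at S1, against 123.7 to 271.8 CPM in 3MWT. At S2 the middle library of 3mlpa had 616.7 CPM, against 2181 CPM for 3MWT, at S3 43560 against 69020 CPM, and at S4 69600 against 135100 CPM. At S5 it was 209500 to 247400 CPM in 3mlpa and 225000 to 239100 CPM in 3MWT, with overlap. The Essex cross had a marker gap in the same direction at S1, with 5.55 to 9.14 CPM in 1mlpa against 132.6 to 170.7 CPM in 1MWT. The median log2 fold change over the 40 histone genes was 0.05 there. At S2 the middle library of 1mlpa had 2083 CPM against 213 CPM for 1MWT (histone median 0.19), and at S3 8666 against 4612 CPM (-0.18). At S4 it had 167100 against 69250 CPM (-0.19), and at S5 237300 against 318000 CPM (0.21). The part of the markers in the histone values was not tested.

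The calls between 3mlpa and 3MWT numbered 2 (S1), 1 (S2), 0 (S3), 1 (S4) and 5 (S5), where 6.21, 4.71, 4.52, 2.36 and 4.27% of all genes were called. At S3, 22 histone genes had an unadjusted p under 0.05, for which the share of all genes is not given. DESeq2 called 0 of them at S3, and 1990 of all genes. Without 3mlpa S3 replicate 1 edgeR called 3 at that stage. At S1 the count was 0 without 3MWT S1 replicate 3 and 1 without any of the other libraries of that stage, and 0 with library totals alone. At S4 it was 0 without 3mlpa S4 replicate 3, or without 3MWT S4 replicate 1 or 2. At S5 it was 3 without 3mlpa S5 replicate 1, 2 without 3MWT S5 replicate 1, 11 without 3mlpa S5 replicate 3 and 12 without 3MWT S5 replicate 3.

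Glyma.05G188600 was called at S1 and S5. It had 54.5, 62.1 and 53.1 CPM in 3mlpa at S1, against 113, 103 and 142 CPM in 3MWT, a log2 fold change of -1.08. At S5 it had 9.66, 11.9 and 20.2 CPM in 3mlpa, against 39.9, 28.9 and 22.9 CPM in 3MWT, a log2 fold change of -1.12. The groups were apart at each of the 5 stages, including S4, with 28.9, 23.4 and 17.98 CPM in 3mlpa against 42.5, 42.5 and 41.5 CPM in 3MWT.

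At S5 the largest called differences were those of 2 H1 genes. Glyma.02G140900, with the values given above for S5, had a log2 fold change of -1.43 and Glyma.10G033100 one of -1.25, 3mlpa over 3MWT. Their differences at S1 were -0.48 and -0.50, so the gap was wider at S5. The H4 gene Glyma.10G062400 had 2.28, 3.03 and 5.48 CPM in 3mlpa at S5, against 8.96, 6.77 and 7.09 CPM in 3MWT (-1.06), and the H3.1 gene Glyma.13G342000 had 10.2, 15.2 and 21.8 CPM in 3mlpa, against 41.8, 34.5 and 24.1 CPM in 3MWT (-1.08). With library totals alone 3 of the 5 calls were left, those of Glyma.02G140900, Glyma.05G188600 and Glyma.10G033100, and the calls of Glyma.13G342000 (-1.02) and Glyma.10G062400 were lost. The difference between 3mlpa and 3MWT minus that between 1mlpa and 1MWT was called for 2 histone genes at S1, 2 at S2, 3 at S4 and 3 at S5, where 6.48, 5.46, 2.27 and 1.32% of all genes were. At S3 it was called for 0 histone genes and for 1555 of all 40517 tested genes.

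The calls at other stages were single genes. Glyma.12G215600 (H2A) had 15.4, 11.6 and 13.5 CPM in 3mlpa at S1, against 25.6, 32.3 and 24.1 CPM in 3MWT (-1.02), a call that was lost without any 1 of these 6 libraries. Glyma.12G074500 (H4) had 22.3, 22.2 and 20.2 CPM in 3mlpa at S2, against 41.4, 50.0 and 49.8 CPM in 3MWT (-1.12). Glyma.06G164400, the centromere protein S match, was the one gene called higher in the mutant, with 1.95, 1.56 and 2.35 CPM in 3mlpa at S4, against 0.742, 0.827 and 1.21 CPM in 3MWT (1.08). Centromere protein S is a histone-fold protein rather than a histone. Its call was also lost when no filter on low counts was used.

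**Figure D4:**
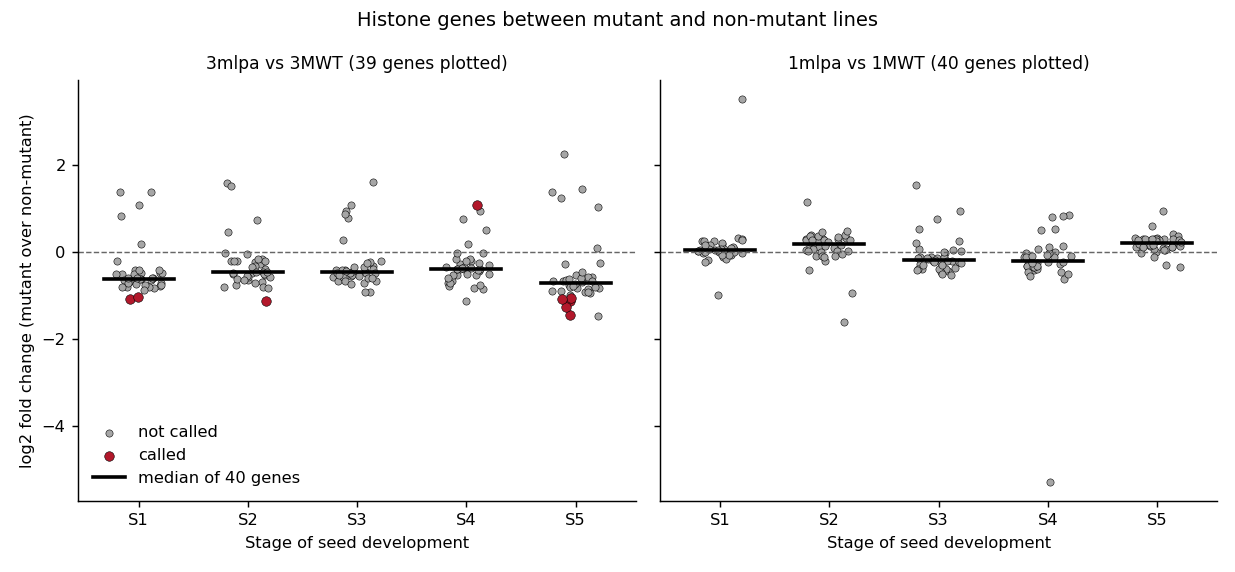
Log2 fold change of each histone gene (vertical axis; 3mlpa over 3MWT on the left, 1mlpa over 1MWT on the right) by stage (horizontal axis). Each point is 1 gene, filled red where called, and bars mark the median of 40 genes, which lies between -0.71 and -0.37 on the left and between -0.19 and 0.21 on the right; Glyma.15G222200, without counts in 3mlpa and 3MWT, is not drawn on the left.

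Between 1mlpa and 1MWT no histone gene was called at any stage by edgeR, and 0 were called by DESeq2. At an unadjusted p under 0.05 the numbers were 0 (S1), 4 (S2), 1 (S3), 4 (S4) and 2 (S5), without a share of all genes beside them. By the call, edgeR gave 0.289, 0.0, 0.00247, 0.074 and 0.0% of all genes at these stages. The median log2 fold change over the 40 genes was 0.05 (S1), 0.19 (S2), -0.18 (S3), -0.19 (S4) and 0.21 (S5), so it changed sign between stages. All 3 libraries of 1mlpa lay below all 3 of 1MWT in 2, 1, 7, 17 and 0 genes at S1 to S5, where 9.43, 6.09, 6.16, 15.9 and 4.75% of all genes did so. They lay above in 4, 6, 1, 5 and 3 genes, and the share of all genes is not given for this direction. At S4 the storage markers summed to 148800 to 167900 CPM in 1mlpa, against 66100 to 91140 CPM in 1MWT, and their part in the result was not tested.

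At S4, Glyma.02G140900 had 222, 220 and 214 CPM in 1mlpa, against 150, 145 and 154 CPM in 1MWT, and Glyma.10G033100 had 227, 234 and 225 CPM in 1mlpa, against 159, 153 and 165 CPM in 1MWT. The groups did not overlap and the log2 fold changes were 0.54 and 0.53, under the size required for a call. At the same stage the median was 0.53 over the H1 genes, -0.31 over the H2A genes, -0.09 over the H2B genes, -0.08 over the H3 genes and -0.35 over the H4 genes. The H2B and H3 classes held genes of both signs. The 5 H1 values ran from 0.01 to 0.86 and include the rare Glyma.02G140600, whose class is doubtful. The H1 gene Glyma.20G225900 had 62.9, 56.9 and 60.9 CPM in 1mlpa, against 55.8, 54.8 and 59.4 CPM in 1MWT. Glyma.11G075500 had 26.0, 29.3 and 26.1 CPM in 1mlpa, against 28.9, 23.0 and 28.9 CPM in 1MWT. For both of these genes the lines overlapped. At S5, Glyma.02G140900 had 139, 184 and 159 CPM in 1mlpa, against 159, 125 and 113 CPM in 1MWT, with overlap.

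None of the authors' comparisons set the crosses against each other, so the mean of 3mlpa and 3MWT over the stages against that of 1mlpa and 1MWT was not itself used to choose the genes. It was not independent of the choice for a gene expressed in one cross alone, which could be chosen only through that cross. Cross and sequencing effort cannot be told apart in it, because all libraries of 3mlpa and 3MWT came from the earlier study. Each cross was present only as the lines named, so standard errors and p-values here measure the spread between libraries of a group. They do not measure the spread between lines or crosses. By edgeR, 3 of 40 histone genes were called, where 3.86% of all genes were, and the 3 include Glyma.15G222200, which could enter only through 1mlpa and 1MWT. Another 8 had an adjusted p under 0.01 with a smaller fold, 7 of them higher in 3mlpa and 3MWT, and the largest of these by size was Glyma.12G082700 at 0.98 ± 0.21 (adjusted p = 0.000126, edgeR). The share of all genes with such a p and a smaller fold is not given. The median log2 fold change over the 40 genes was 0.14, beside 0.01 over all genes.

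The H3.1 gene Glyma.15G222200 had 0 counts in all 30 libraries of 3mlpa and 3MWT, against 72 to 1842 counts in each of the 30 libraries of 1mlpa and 1MWT. In 1mlpa it had 51.6, 49.5 and 49.2 CPM at S1 and 6.00, 13.4 and 7.02 CPM at S5, and in 1MWT 53.7, 51.6 and 34.1 CPM at S1 and 7.72, 9.26 and 4.50 CPM at S5. Set against a floor of 3 counts over the 30 libraries, which is 0.00371 CPM, the level was at least 7890-fold lower in 3mlpa and 3MWT. Such a floor covers counting error only. The gene could be chosen, and could pass the filter, only through 1mlpa and 1MWT, so this difference is a description and its p is not given. Among the 40 genes, no other had 0 counts in every library of a line. The 6 other H3.1 genes had log2 fold changes between 0.07 and 0.24 in the same comparison, and none was called.

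The CENH3 gene Glyma.16G026300 was lower in 3mlpa and 3MWT by 1.31 ± 0.07 on the log2 scale (adjusted p = 9.91e-21, edgeR). At S1 it had 2.37, 2.75 and 2.19 CPM in 3mlpa and 3.13, 4.19 and 2.38 CPM in 3MWT, against 7.37, 6.20 and 6.95 CPM in 1mlpa and 7.28, 6.83 and 5.18 CPM in 1MWT. At S5 it had 0.783, 0.667 and 0.715 CPM in 3mlpa and 1.13, 0.689 and 0.732 CPM in 3MWT, against 1.75, 1.62 and 1.76 CPM in 1mlpa and 1.18, 1.299 and 0.877 CPM in 1MWT, where 1 library of 3MWT reached into the range of 1MWT. The call was kept without replicate 1, 2 or 3 of every group, at -1.36, -1.35 and -1.24. Leaving out a line was not tried, and the p does not measure the spread between lines. The other CENH3 gene, Glyma.07G057300, had a log2 fold change of -0.02 in this comparison.

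The late H2B gene Glyma.11G191600 was higher in 3mlpa and 3MWT by 1.28 on the log2 scale (adjusted p = 0.00265, edgeR), but the call was lost without replicate 2 of every group (1.08) and without replicate 3 (1.11). At S3 it had 0.877, 6.56 and 4.10 CPM in 3mlpa and 1.51, 2.61 and 1.82 CPM in 3MWT, against 0.590, 1.34 and 0.339 CPM in 1mlpa and 0.212, 0.309 and 0.236 CPM in 1MWT. At S5, its peak, it had the levels given above, and all 3 libraries of 3MWT lay below all 3 of 1MWT, with means of 8.92 CPM in 3mlpa and 3.23 CPM in 3MWT, against 5.54 CPM in 1mlpa and 6.75 CPM in 1MWT. The fitted value also depends on the prior count, because the gene was at 0 counts in all libraries of 1MWT at S1. The H1.3 match Glyma.11G075500 was higher by 0.64 ± 0.07 (adjusted p = 1.13e-10, edgeR), with 46.7, 43.6 and 37.5 CPM in 3mlpa and 45.1, 37.1 and 37.7 CPM in 3MWT at S5, against 19.5, 26.5 and 23.1 CPM in 1mlpa and 23.2, 18.6 and 28.1 CPM in 1MWT. Its fold was under that required for a call.

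**Figure D5:**
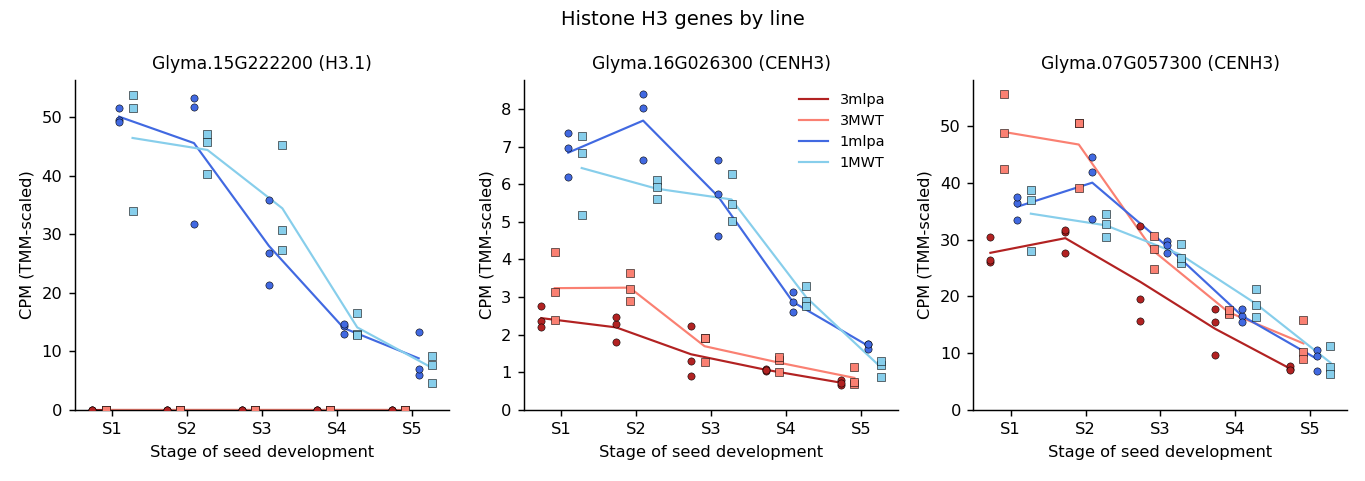
Level of the H3.1 gene Glyma.15G222200 and of both CENH3 genes in TMM-scaled CPM (vertical axes) by stage (horizontal axes) and line, 1 point per library with lines joining means of 3. Glyma.15G222200 is at 0 in all libraries of 3mlpa and 3MWT, and Glyma.16G026300 at S1 is at 2.19 to 4.19 CPM in these lines against 5.18 to 7.37 CPM in 1mlpa and 1MWT, while the lines are mixed for Glyma.07G057300.

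Genes that work beside histones fell with them. Of 14 annotated DNA replication genes, among them MCM subunits of the replicative helicase, CDC45, CDC6 and PCNA2, 14 were called lower at S5 than at S1 for 3mlpa, 14 for 3MWT, 10 for 1mlpa and 13 for 1MWT, where 29.3 to 32.6% of all genes were called in either direction. Their median log2 fold changes for S5 vs S1 were -1.70, -1.97, -1.14 and -1.25 in these lines, less than those of the histone genes. For S5 vs S4 in 1mlpa their median was 0.62, while that of the histone genes was -0.58. The 2 annotated histone chaperone subunits, FAS2 of CAF-1 and SSRP1 of FACT, were both called lower at S5 than at S1 in all 4 lines. These genes, too, had text only through the authors' own calls.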

How the data were processed

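Per the labels and the study's methods, reads of 100 bases from one end were aligned by the authors to Williams 82 Wm82.a2.v1 with STAR 2.4.2 and counted them per gene with featureCounts 1.4.6. The deposited counts are raw, and the deposited RPKM values were scaled by gene length and library total. The log2 fold changes of the authors' DESeq2 1.8.2 comparisons were not used, and their tables served only for annotation text. Counts were tested here with edgeR 4.0.16 in R 4.3.3 (filterByExpr, 40517 genes tested, TMM, 1 mean for each of 20 groups, quasi-likelihood test, Benjamini-Hochberg adjustment). Called means an adjusted p under 0.01 and a log2 fold change beyond 1, the study's thresholds. P-values measure only the spread between libraries. Alternatives were DESeq2 1.42.0, no filter, DESeq2 size factors, library totals, a replicate block and left-out libraries. Scripts were tested on simulated data. Members and lists were chosen with earlier results of these data known. Genes were named by rule: the 4 with the highest mean RPKM in each class, H2A and H3 variants, up to 5 called genes in each direction with the largest fold in each comparison of lines or crosses, and the 5 largest and 5 smallest mean changes for S5 vs S1. Glyma.10G062400 was named after its values were seen. Gene identifiers could not be joined to RefSeq, so sequences, promoters and a RefSeq family list were not used here.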

Additional observations from a re-analysis of the deposited data

Results flagged for a closer look

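The difference between mutant and non-mutant line differed between the crosses for 7 histone genes, by the interaction term of the same edgeR fit (3mlpa vs 3MWT minus 1mlpa vs 1MWT). These terms combine comparisons through which the genes were chosen, so they are given as values. Of 40 histone genes, 2 were called at S1, 2 at S2, 3 at S4 and 3 at S5, where 6.48, 5.46, 2.27 and 1.32% of all genes were, so the share at S1 and S2 was not above that of all genes. At S3, 0 histone genes were called, beside 1555 of all 40517 tested genes. At S1 the term was -1.03 ± 0.29 on the log2 scale for the H2A.X gene Glyma.03G148100 and -1.22 ± 0.30 for the H3.1 gene Glyma.05G188600. At S2 it was -1.19 ± 0.31 for the H4 gene Glyma.12G074500 and -1.21 ± 0.33 for the H4 gene Glyma.15G043200. At S4 it was -1.36 ± 0.23 for the H1 gene Glyma.02G140900, -1.22 ± 0.24 for the H1 gene Glyma.10G033100 and 1.49 ± 0.38 for Glyma.06G164400. At S5 it was -1.71 ± 0.23 for Glyma.02G140900, -1.62 ± 0.24 for Glyma.10G033100 and -1.46 ± 0.32 for Glyma.05G188600. For both H1 genes the mutant was lower in the one cross and higher in the other, with middle libraries of 161 CPM (3mlpa) and 256 CPM (3MWT), and of 220 CPM (1mlpa) and 150 CPM (1MWT), for Glyma.02G140900 at S4.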

How the results depend on the processing

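Counts of called histone genes were recomputed for 23 comparisons. They moved by over 1.5 times in 0 with DESeq2 size factors, 0 with the replicate block, 1 without the filter, 3 with DESeq2 and 5 with library totals. With library totals the counts were 29 for S5 vs S4 in 3mlpa, 5 for S5 vs S4 in 1mlpa, 1 for S2 vs S1 in 1mlpa, and 0 at S1 and 3 at S5 for 3mlpa vs 3MWT. DESeq2 gave 2 for S2 vs S1 in 3MWT, 1 for S2 vs S1 in 1mlpa and 2 for S5 vs S4 in 1mlpa. Without the filter, 3mlpa vs 3MWT at S4 gave 0. Without the 3 libraries whose column names carry a suffix, an alternative chosen after seeing the data, S2 vs S1 in 3mlpa gave 1. Median log2 fold changes with library totals were -1.02 for S3 vs S2 in 3MWT, -1.07, -1.385 and -1.27 for S4 vs S3 in 3MWT, 1mlpa and 1MWT, and -1.59 for S5 vs S4 in 1MWT, where the median of all genes moved with the scaling.

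Leaving out 1 library gave 37 to 38 genes for S5 vs S1 in 3mlpa, 36 to 36 in 3MWT, 37 to 37 in 1mlpa and 37 to 38 in 1MWT. It gave 0 to 2, 1 to 2, 0 to 0 and 0 to 0 for S2 vs S1, and 0 to 27, 0 to 0, 0 to 7 and 6 to 30 for S5 vs S4, in the same lines. For 3mlpa vs 3MWT it gave 0 to 1 at S1, 1 to 1 at S2, 0 to 3 at S3, 0 to 1 at S4 and 2 to 12 at S5, and 0 to 0 for 1mlpa vs 1MWT at each stage. Between the crosses, leaving out a replicate number gave 2 to 4.

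Replicate numbers were shared by the groups, but samples of the same number did not deviate together (median correlation 0.01 over 30 comparisons, with every pair over 0.1 in 2 of them), and the replicate block gave 38, 36, 37 and 38 calls for S5 vs S1 in 3mlpa, 3MWT, 1mlpa and 1MWT. No result reversed its direction under any alternative run. Genes near 1 CPM, such as Glyma.16G026300 and Glyma.06G164400, rest on few reads per library.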

Other observations

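In 14 of the 20 groups of 3 libraries, the library with the least storage protein RNA had the highest summed level of the 37 early histone genes, and in 8 groups the library with the most storage protein RNA had the lowest. With only 3 libraries in a group, random order alone would give such matches in some groups. The count of 8 of 20 is not far from that, and 14 of 20 is further from it. Both counts were noticed in the data and were not tested.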
